A study of Mus musculus with 12 samples.

Results

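The variable segments of the immunoglobulin kappa light chain (Igkv genes) were followed in sorted mouse B cells labelled as knockouts of Myb or Moz and in their controls. They were taken as every counted gene whose Entrez ID carries a symbol beginning with Igkv, which gave 103 of 27179 genes. The annotation holds 260 immunoglobulin genes with a symbol in all. Of the 103, 102 are annotated as V segments and 1 (Igkv13-71-1) as a pseudogene, and the 59 further Igkv loci of the annotation, all pseudogenes, were not counted. The 103 fall into 20 families, named by the number before the hyphen, of which Igkv4 is the largest with 28 segments, and 7 families hold 1 segment each.

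All mice were C57BL/6 and were immunised with NP-KLH (a hapten on a carrier protein) in alum, and each library was polyA RNA of cells sorted from a pool of 2 to 8 mice. There were 12 libraries in 6 groups of 2. The Myb knockout (genotype Myb fl/fl CD23-cre T/+) and its control (Myb fl/fl, no cre) were sampled as germinal centre (GC) B cells on day 12, and as secondary plasmablasts (PB) on day 5 after a boost with NP-KLH in PBS. The Moz knockout (Moz fl/fl AID-cre T/+) and its control (AID-cre T/+) were sampled as GC B cells on day 7. The CD23 promoter acts in mature B cells and the AID promoter in activated, GC B cells. Cre itself was absent from the Myb controls, so that cre and the loss of Myb cannot be told apart, while both Moz groups carried cre. The groups held 5, 5, 9, 13, 14 and 11 mice in the order Myb knockout GC, Myb control GC, Myb knockout PB, Myb control PB, Moz knockout GC and Moz control GC.

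Each mature B cell joins 1 V segment to a J segment and the constant region, Igkc, to make its kappa chain, or makes a lambda chain in its place. Which V segment a cell uses is fixed at that joining in the bone marrow, apart from later receptor editing. The share of a V segment in bulk RNA therefore follows both the cells that carry it and the RNA each makes. GC B cells mutate and select their receptors, while plasmablasts transcribe the joined genes at a very high rate and secrete antibody. In C57BL/6 mice the response to the NP hapten is known for its lambda light chains. In bulk RNA, fewer cells of a kind and less RNA per cell cannot be told apart.

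The libraries held 8285934 to 24801297 counts. The pools of a group differed by more than counting error gives, with a chi-square of 26.3 to 96.1 times its degrees of freedom. Levels are TMM-normalised CPM, counts scaled to a common library size, and shares are percentages of all Igkv counts of a library. Every gene was tested with edgeR's quasi-likelihood test in 1 model over the 12 libraries, with the Benjamini-Hochberg adjustment over 13131 genes and a limit of 0.05. A second fit, with the replicate block, also holds the replicate number within each experiment, since knockout and control pools of 1 number share their experiment dates in the labels. The p-values set a difference between groups against the spread between pools of mice. With 2 pools a group, that spread was estimated over all 6 groups together. Myb itself had 13.04 and 11.6 CPM in the Myb knockout GC pools, against 14.04 and 11.5 CPM in the controls (log2 -0.05, SE 0.24, edgeR adjusted p = 1.00). Kat6a, which encodes MOZ, had 66.4 and 93.7 CPM in the Moz knockout pools, against 82.01 and 73.4 CPM in the controls (log2 0.04, SE 0.38, edgeR adjusted p = 1.00). Neither the deletion nor its absence can be read from these values, since exons that are not floxed are counted too, so knockout and control are the labels' names throughout. The Y-linked gene Ddx3y had 67.2 unscaled CPM in pool 1 of the Myb knockout GC B cells, although the label of that pool names 2 females. Each printed fold change that passed with this pool is therefore also given without it, apart from those scaled to the Igkv total. The values without the pool are all from the fit without the block, also where the call was made with the block. GC marker genes summed to 145 to 164 CPM in the PB libraries and 1258 to 2229 CPM in the GC libraries. Plasmablast markers summed to 109461 to 149455 CPM in the PB libraries and 1236 to 8292 CPM in the GC libraries. Both lists followed the labelled cell types.

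The results turn on Igkv5-39 and its family. The 5 segments of Igkv5 lie on the minus strand of chromosome 6, 763 to 999 kb from Igkc. Their V exons are printed here from the GENCODE M21 transcripts (mm10, 5′ to 3′ on the coding strand), because reads of close relatives can be told apart only where these sequences differ. Igkv5-39 is in lower case throughout. In the other 4, capitals mark the bases that differ from Igkv5-39 in the alignment of each pair. The V exons are those of Igkv5-39 at chr6:69900424-69900721, Igkv5-45 at chr6:69775750-69776047, Igkv5-43 at chr6:69823355-69823652, Igkv5-48 at chr6:69726573-69726870 and Igkv5-37 at chr6:69963312-69963609.
Igkv5-39: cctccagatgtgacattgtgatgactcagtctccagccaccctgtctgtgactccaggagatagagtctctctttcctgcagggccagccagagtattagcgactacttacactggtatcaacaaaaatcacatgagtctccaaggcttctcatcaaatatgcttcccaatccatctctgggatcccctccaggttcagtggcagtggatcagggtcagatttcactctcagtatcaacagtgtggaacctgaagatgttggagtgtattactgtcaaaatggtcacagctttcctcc
Igkv5-45: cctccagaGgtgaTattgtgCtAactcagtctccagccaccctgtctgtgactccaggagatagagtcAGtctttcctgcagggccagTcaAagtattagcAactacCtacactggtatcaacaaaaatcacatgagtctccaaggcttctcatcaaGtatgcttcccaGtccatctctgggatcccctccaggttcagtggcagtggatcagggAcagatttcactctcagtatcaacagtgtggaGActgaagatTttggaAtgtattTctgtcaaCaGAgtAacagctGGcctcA
Igkv5-43: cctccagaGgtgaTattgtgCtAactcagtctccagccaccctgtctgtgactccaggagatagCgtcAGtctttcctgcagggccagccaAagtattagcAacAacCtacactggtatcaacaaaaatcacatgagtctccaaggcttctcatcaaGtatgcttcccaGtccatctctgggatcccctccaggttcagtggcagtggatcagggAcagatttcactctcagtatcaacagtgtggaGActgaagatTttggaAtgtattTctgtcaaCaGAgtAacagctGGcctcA
Igkv5-48: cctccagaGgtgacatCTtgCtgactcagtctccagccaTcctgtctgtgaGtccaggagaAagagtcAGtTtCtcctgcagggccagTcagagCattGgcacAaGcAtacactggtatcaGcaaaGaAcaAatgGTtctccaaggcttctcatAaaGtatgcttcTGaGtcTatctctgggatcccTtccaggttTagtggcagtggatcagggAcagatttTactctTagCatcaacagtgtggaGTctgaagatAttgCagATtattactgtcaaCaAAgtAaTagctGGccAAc
Igkv5-37: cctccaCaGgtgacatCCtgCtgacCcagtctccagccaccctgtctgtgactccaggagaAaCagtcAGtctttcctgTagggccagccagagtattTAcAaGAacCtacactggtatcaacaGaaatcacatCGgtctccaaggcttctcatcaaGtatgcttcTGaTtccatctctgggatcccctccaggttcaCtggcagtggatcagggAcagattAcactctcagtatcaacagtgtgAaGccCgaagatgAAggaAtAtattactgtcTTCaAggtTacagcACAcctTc
Igkv5-45 was the nearest relative of Igkv5-39, with 25 differing bases and 91.6% identity. No window of 50 bases of the Igkv5-39 transcript occurred in another Igkv transcript. Shorter runs did occur in Igkv5-45 and Igkv5-43, as the printed sequences show. Some reads of Igkv5-39 may therefore have been counted on these relatives. Igkv5-45 and Igkv5-43 were 98.99% identical to each other, and 50.3% of the windows of Igkv5-45 occurred in another Igkv transcript, so that reads can be shared between these 2. Among the 102 segments with a transcript, 48 had a nearest relative with at least 95% identity, and 26 shared no window. The sources used here give neither the strand setting nor how reads that fit several segments were counted. Reads from a mutated V region may also match their germline segment less well.

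Family use was concentrated on Igkv5 in the Myb knockout. In knockout GC B cells Igkv5 took 32.5 and 20.95% of Igkv counts in pools 1 and 2, against 10.4 and 12.3% in control GC B cells. In knockout PB it took 45.6 and 33.9%, against 13.1 and 6.56% in control PB. Both knockout pools lay above both control pools in each cell type. In the Moz experiment Igkv5 took 10.6 and 7.28% in knockout and 6.91 and 9.65% in control GC B cells, and those pools overlapped. The 95% Wilson intervals of a family's share, which cover counting error only, were at most 0.675 percentage points either way in GC libraries and 0.0758 in PB libraries. Igkv4 was the family with the highest mean share in the other 4 groups, at 12.8% ± 2.55 in Myb control GC, 16.8% ± 1.59 in Myb control PB, 16.9% ± 0.0529 in Moz knockout and 16.2% ± 3.06 in Moz control GC B cells (SD, n = 2 each).

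The higher Igkv5 share was that of Igkv5-39. When Igkv5-39 was taken out of both the family and the total, the family's share was 5.17 and 5.44% in Myb knockout GC pools and 3.83 and 5.73% in controls, and 3.15 and 3.27% in knockout PB pools and 3.80 and 3.34% in controls. Igkv2, a family of 3, had a lower share in the knockout, with 1.57 and 1.91% in knockout GC pools, against 6.02 and 5.50% in controls. In PB it had 4.20 and 3.90% in knockout pools, against 7.57 and 8.65% in controls. Its summed level overlapped between knockout and control in both cell types. That level was 35.2 and 46.9 CPM in knockout GC pools, against 44.1 and 51.5 CPM in controls. In PB the level was 9362 and 6736 CPM in knockout pools, against 8920 and 10682 CPM in controls. With Igkv5-39 left out, Igkv2 had 2.21 and 2.28% in knockout GC pools, against 6.46 and 5.91% in controls, and 7.47 and 5.71% in knockout PB pools, against 8.38 and 8.95% in controls. Igkv9, a family of 4, had 2.74 and 3.91% of the remaining counts in knockout GC pools, against 7.23 and 6.65% in controls, and 3.44 and 4.40% in knockout PB pools, against 6.73 and 5.45% in controls. Igkv12, a family of 6, had 7.56 and 8.61% in knockout GC pools, against 9.54 and 14.9% in controls, and 4.47 and 6.65% in knockout PB pools, against 8.61 and 13.3% in controls. For Igkv2, Igkv9 and Igkv12 both knockout pools lay below both control pools in each cell type. Igkv1 went opposite ways in the cell types. It had 7.17 and 9.07% of the remaining counts in knockout GC pools, against 11.5 and 9.48% in controls. In PB it had 17.3 and 17.1% in knockout pools, against 13.2 and 14.5% in controls. Igkv14 had 5.27 and 8.92% in knockout GC pools, against 4.53 and 3.47% in controls, and its PB pools overlapped. Without Igkv2-112, the other Igkv2 segments took 1.21 and 1.37% of all Igkv counts in knockout GC pools, against 2.07 and 2.13% in controls, and 3.14 and 3.00% in knockout PB pools, against 3.39 and 2.98% in controls, so that the lower family share in PB was that of Igkv2-112. Igkv6, a family of 9, had 19.6 and 13.9% of the remaining counts in knockout GC pools, against 10.3 and 11.4% in controls. In PB it had 6.13 and 8.40% in knockout pools, against 5.68 and 6.16% in controls, where the pools overlapped. Igkv6-17 alone took 8.42 and 1.96% of all Igkv counts in knockout GC pools, against 1.22 and 1.85% in controls. It therefore held much of the higher Igkv6 share of knockout GC pool 1. The Igkv6 share without Igkv6-17 was not computed. Igkv13 took 8.04 and 0.938% of all Igkv counts in knockout PB, against 0.923 and 0.739% in controls, so that its higher share rested on pool 1. These shares are described without a test.

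**Figure D1:**
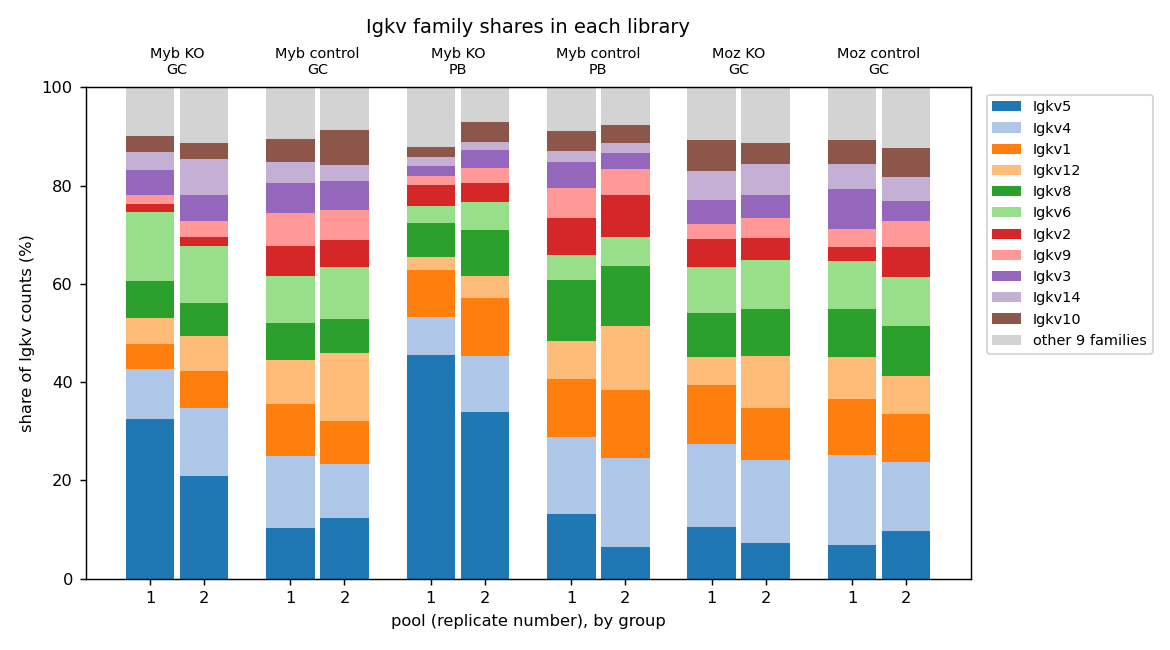
Share of Igkv counts (%, vertical axis from 0 to 100) taken by each Igkv family in each of the 12 pools, grouped by knockout and control. The Igkv5 block is 32.5 and 20.95% high in Myb knockout GC pools and 45.6 and 33.9% in Myb knockout PB pools, and at most 13.1% in the other 8 pools.

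Igkv5-39 (ID 620017, chr6 69900424 to 69900977) alone took 28.8 and 16.4% of Igkv counts in Myb knockout GC pools, against 6.81 and 7.02% in controls. In PB it took 43.8 and 31.7% in knockout pools, against 9.65 and 3.33% in controls. Both knockout pools exceeded both controls in each cell type by more than the counting intervals, which ran from 16.02 to 16.8% for the lower knockout GC pool and from 6.57 to 7.50% for the higher control GC pool. In the Moz experiment the segment took 2.43 and 3.26% in knockout pools, against 1.88 and 2.73% in controls. Counts per base of gene length gave nearly the same shares, 29.1 and 16.6% in Myb knockout GC pools, against 6.90 and 7.10% in controls, and 44.2 and 32.1% in knockout PB pools, against 9.83 and 3.39% in controls.

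Fewer segments carried the kappa output of the Myb knockout. The effective number of segments, the inverse of the summed squared shares, was 10.1 and 22.9 in knockout GC pools, against 44.2 and 40.9 in controls. In PB it was 4.90 and 8.93 in knockout pools, against 34.8 and 36.2 in controls. Moz knockout pools had 43.9 and 46.3, against 48.2 and 48.8 in Moz controls. In knockout PB pools 2 and 7 segments made up 50% of Igkv counts, against 14 in each control PB pool. In GC B cells 7 and 13 segments did so in knockout pools, against 17 and 16 in controls. Without Igkv5-39 the effective number was 30.97 and 41.9 in knockout and 48.3 and 44.3 in control GC pools, and 25.96 and 40.5 in knockout and 42.1 and 35.2 in control PB pools, so that the groups then overlapped in PB. Profiles of log2 share over the 102 segments correlated at 0.869 to 0.945 (Pearson) between the 2 pools of a group and at 0.810 to 0.935 between pools of different groups, a description across segments that share a library.

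**Figure D2:**
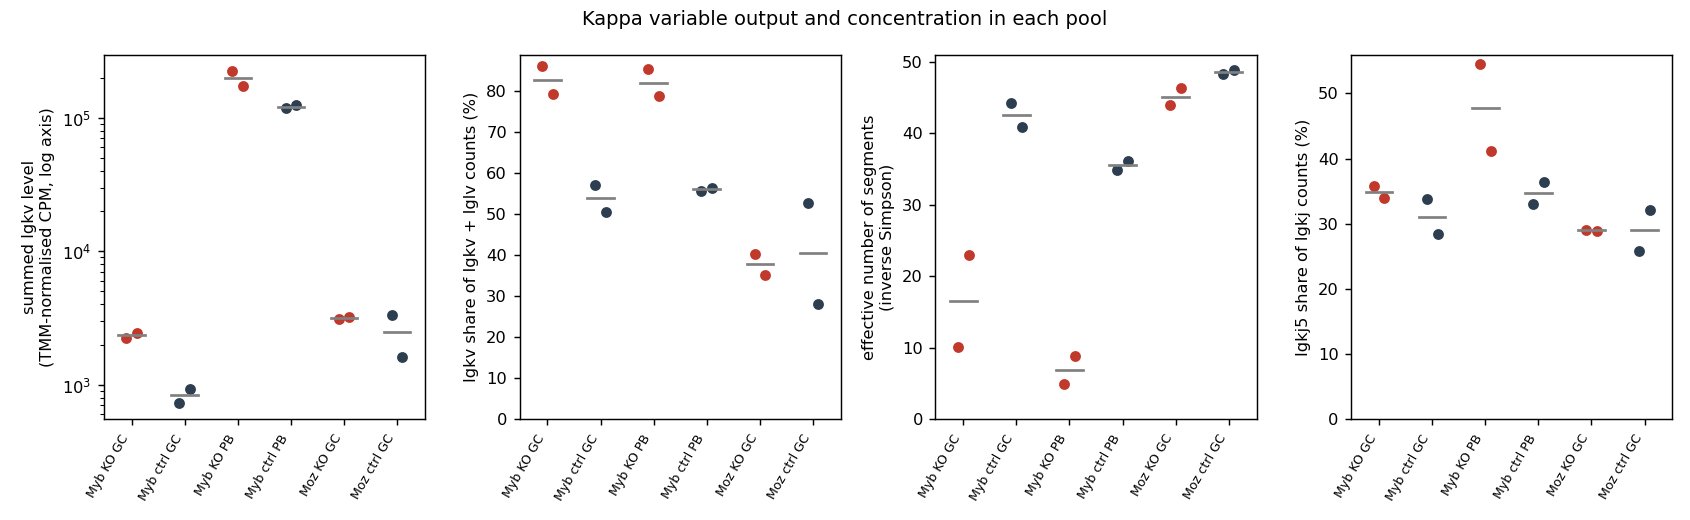
From left to right, the summed Igkv level (TMM-normalised CPM, log axis), the Igkv share of all light chain V counts (%), the effective number of Igkv segments and the Igkj5 share of Igkj counts (%) in each pool (points, knockout red, control dark) with the mean of each group (grey bars). The effective number is at most 22.9 in the 4 Myb knockout pools and at least 34.8 in the other 8.

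The first comparison asked how loss of Myb changed kappa segments in GC B cells. Kappa V output was higher in the knockout: the summed Igkv level was 2241 and 2460.4 CPM in knockout pools, against 733 and 937 CPM in controls (log2 ratio of means 1.49). Igkv5-39 made up 30.8% of that difference, and the sum of the other segments was 1826 ± 327 CPM in knockout and 777 ± 133 CPM in control GC B cells (SD, n = 2 each; log2 ratio 1.23). Of the 102 segments that passed the low-count filter, 91 had an estimate above 0, with a median log2 fold change of 1.08 against 0.00 over all tested genes. Relative to the Igkv total, 34 were above 0 with a median of -0.45, a scaling that moved the median of all genes to -1.51. The edgeR fit called 4 segments higher and 0 lower, while it called 0.236% of all genes higher and 0.0228% lower. Scaled to the Igkv total it called 5 segments higher and 15 lower, against 0.236% and 78.5% of all genes, so that most calls on this scale were falls in share. At an unadjusted p under 0.05, 40 were higher and 1 lower, against 4.68% and 1.07% of all genes. DESeq2 called 22 higher and 1 lower, against 1.19% and 0.14% of the genes to which it gave an adjusted p. With the replicate block 20 were higher, by log2 0.76 to 3.16, and 1 lower, against 2.03% and 0.396% of all genes.

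Igkv5-39 had 646 and 404 CPM in knockout GC pools, against 49.9 and 65.8 CPM in controls (log2 3.18, SE 0.53, edgeR adjusted p = 0.0391). The knockout pools stood apart from the controls, with pool 1 higher. Igkv8-28 (ID 434040, chr6 70143593 to 70144166) had 22.96 and 17.9 CPM in knockout pools, against 6.22 and 3.55 CPM in controls (log2 2.06, SE 0.28, edgeR adjusted p = 0.0169). Igkv17-121 (ID 667435, chr6 68036812 to 68037318) had 71.4 and 49.7 CPM in knockout pools, against 12.2 and 13.3 CPM in controls (log2 2.25, SE 0.34, edgeR adjusted p = 0.0266). For these 3 segments the pools of a group lay close to each other compared with the gap between the groups. Igkv6-17 (ID 667865, chr6 70371439 to 70371993) had 189 and 48.3 CPM in knockout pools, against 8.94 and 17.3 CPM in controls (log2 3.18, SE 0.54, edgeR adjusted p = 0.0391). Its knockout pools were far apart, and with the replicate block its call was lost at a similar fold (log2 2.92, SE 0.88, edgeR adjusted p = 0.368). Scaled to the Igkv total, the calls of Igkv8-28 (log2 0.52, edgeR adjusted p = 0.302) and Igkv17-121 (log2 0.76, edgeR adjusted p = 0.121) were lost as well, while Igkv5-39 (log2 1.71, edgeR adjusted p = 0.00340) and Igkv6-17 (log2 1.76, edgeR adjusted p = 0.00334) passed. Without knockout pool 1, without control pool 1 or without control pool 2, 0 of the 102 segments were called by edgeR. Without knockout pool 1 the values were log2 2.81 (edgeR adjusted p = 0.187) for Igkv5-39, 1.87 (edgeR adjusted p = 0.0839) for Igkv8-28, 1.97 (edgeR adjusted p = 0.131) for Igkv17-121 and 1.88 (edgeR adjusted p = 0.131) for Igkv6-17, and the summed level had a log2 ratio of 1.56. Reads of Igkv8-28 may be shared with Igkv8-19 (97.8% identity), those of Igkv17-121 with Igkv17-127 (97.99%) and those of Igkv6-17 with Igkv6-25 (95.6%).

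Another 18 segments passed with the replicate block and not in the same fit without it, of which DESeq2, fitted without a block, called 9. Igkv3-10 had 7.36 and 13.6 CPM in knockout GC pools, against 1.61 and 1.69 CPM in controls (log2 2.61, SE 0.44, edgeR adjusted p = 0.0446 with the block). Igkv4-68 had 9.39 and 34.03 CPM in knockout pools, against 1.89 and 6.77 CPM in controls (log2 2.32, SE 0.24, edgeR adjusted p = 0.000533 with the block). Both knockout pools of Igkv3-10 and of Igkv4-68 lay above both controls. The fold of Igkv4-68 depended on single pools: without the block it was log2 2.34, and leaving out 1 pool gave 2.99 without knockout pool 1, 1.13 without knockout pool 2, 1.68 without control pool 1 and 3.51 without control pool 2. Igkv18-36, the sole member of its family, had 0.870 and 3.22 CPM in knockout pools, against 0.489 and 0.403 CPM in controls, or 15 and 47 counts against 7 and 5 (log2 2.06, SE 0.47, edgeR adjusted p = 0.0438 with the block). Its fold was log2 0.94 without knockout pool 2 and 2.83 without knockout pool 1, both without the block. Igkv2-112 (ID 381776, chr6 68219981 to 68220706) fell, with 8.12 and 13.1 CPM in knockout pools, against 28.9 and 31.5 CPM in controls (log2 -1.55, SE 0.27, edgeR adjusted p = 0.0159 with the block, adjusted p = 0.135 without it). Both knockout pools were below both controls, and the share of Igkv2-112 was 0.362 and 0.532% in knockout pools, against 3.95 and 3.36% in controls.

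The 5 segments with the highest mean share over the 4 Myb GC pools were Igkv5-39, Igkv14-111, Igkv6-17, Igkv10-96 and Igkv12-46, and the order by counts per base of gene length was the same. Igkv14-111 had 74.3 and 158 CPM in knockout pools, against 26.9 and 22.9 CPM in controls, and did not pass (log2 2.22, SE 0.42, edgeR adjusted p = 0.0737). Igkv10-96 had 54.7 and 55.9 CPM in knockout pools, against 27.03 and 41.4 CPM in controls. Igkv12-46 had 30.8 and 75.2 CPM in knockout pools, against 20.1 and 26.8 CPM in controls. Neither Igkv10-96 nor Igkv12-46 passed (edgeR adjusted p = 1 for both). Within family Igkv5, Igkv5-43 had 43.9 and 50.8 CPM in knockout pools, against 10.8 and 17.8 CPM in controls, and passed with the block (log2 1.76, SE 0.18, edgeR adjusted p = 0.000515) and not in the same fit without it (edgeR adjusted p = 0.0683). Igkv5-45 also passed with the block (log2 0.77, SE 0.14, edgeR adjusted p = 0.0182), while its share was 0.313 and 0.362% in knockout pools, against 0.563 and 0.559% in controls. Its level was thus higher and its share lower in the knockout. Without knockout pool 1 and without the block the values were log2 3.04 (edgeR adjusted p = 0.233) for Igkv3-10, log2 2.99 (edgeR adjusted p = 0.0839) for Igkv4-68, log2 2.83 (edgeR adjusted p = 0.328) for Igkv18-36, log2 -1.21 (edgeR adjusted p = 0.707) for Igkv2-112, log2 1.83 (edgeR adjusted p = 0.192) for Igkv5-43 and log2 0.93 (edgeR adjusted p = 0.454) for Igkv5-45, and 0 of these 6 segments were called.

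**Figure D3:**
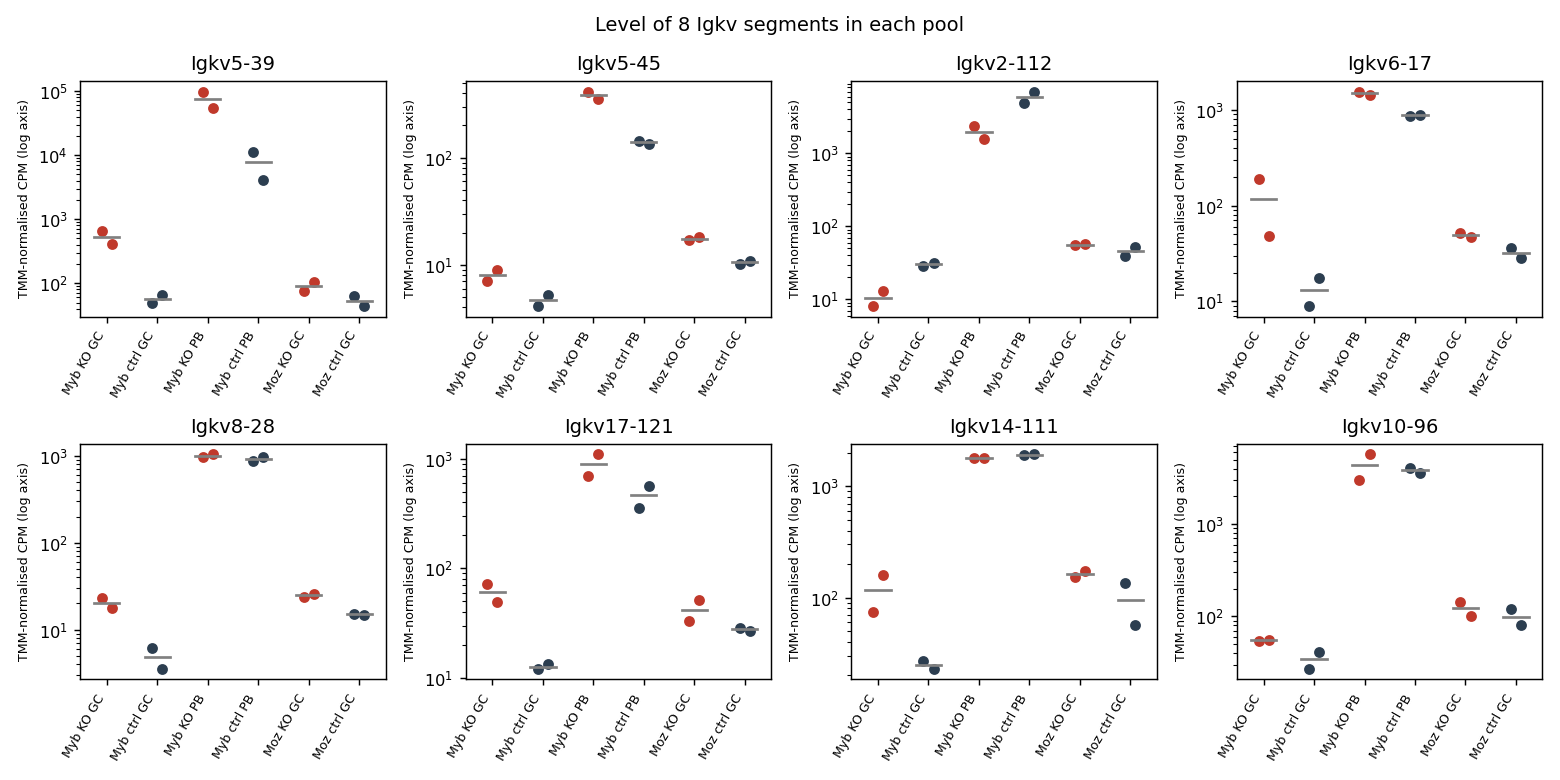
Level (TMM-normalised CPM, log axis that differs between panels) of 8 Igkv segments in each pool (points, knockout red, control, written ctrl, dark), with the mean of each group (grey bars). Igkv5-39 is higher, and Igkv2-112 lower, in all 4 Myb knockout pools than in the control pools of the same cell type.

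In knockout plasmablasts Igkv5-39 was far higher than in control plasmablasts, while the summed level of the other segments was close to that of the controls. The summed Igkv level was 223078 and 172737 CPM in knockout PB pools, against 117781 and 123513 CPM in controls (log2 ratio of means 0.71). Igkv5-39 made up 88.6% of that difference. Without it the sum was 121676 ± 5228 CPM in knockout and 112902 ± 9182 CPM in control PB (SD, n = 2 each; log2 ratio 0.11), a difference below the SD of the control pools. Of 102 segments, 51 had an estimate above 0 and the median log2 fold change was -0.0047, against 0.0070 over all genes. Relative to the Igkv total 20 were above 0, with a median of -0.69 against -0.67 over all genes. The edgeR fit called 1 segment higher and 0 lower, against 0.00762% and 0.0305% of all genes, and 13 segments were higher and 5 lower at an unadjusted p under 0.05, against 2.05% and 1.73%. Scaled to the Igkv total it called 2 higher and 7 lower, against 0.0305% and 0.282%. DESeq2 called 3 higher and 2 lower, against 0.177% and 0.245%. With the replicate block 4 were higher and 2 lower, against 0.213% and 0.366% of all genes.

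Igkv5-39 had 97706 and 54758 CPM in knockout PB pools, against 11371 and 4118 CPM in controls. The control pools differed from each other more than 2-fold, yet both knockout pools lay above both. The fit without the block did not call it (log2 3.30, SE 0.53, edgeR adjusted p = 0.0890), and the fit with the replicate block did (log2 3.42, SE 0.33, edgeR adjusted p = 0.00141). Without the block its log2 fold change was 4.21 without control pool 1 and 2.76 without control pool 2. Igkv5-45 (ID 545850, chr6 69775750 to 69776344) had 412 and 352 CPM in knockout PB pools, against 143 and 134 CPM in controls, and was the 1 segment called without the block (log2 1.46, SE 0.20, edgeR adjusted p = 0.0271). Its pools agreed closely within each group, and its share was 0.185 and 0.204% in knockout pools, against 0.121 and 0.109% in controls. Its near-identical relative Igkv5-43 had 1867 and 1598 CPM in knockout pools, against 1648 and 2112 CPM in controls (log2 -0.12, SE 0.31, edgeR adjusted p = 1.00), so that the 2 did not move together. Whether reads of Igkv5-39, at 97706 and 54758 CPM in the knockout pools, added to the counts of Igkv5-45 was not tested. The call of Igkv5-45 was lost when libraries were scaled to the Igkv total (log2 0.76, edgeR adjusted p = 0.369), and when any 1 of the 4 PB pools was left out (edgeR adjusted p = 0.0661 to 0.338).

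Igkv2-112 fell in PB as well, with 2365 and 1551 CPM in knockout pools, against 4927 and 6995 CPM in controls (log2 -1.62, SE 0.25, edgeR adjusted p = 0.0224 with the block, adjusted p = 0.250 without it). Its share was 1.06 and 0.898% in knockout PB pools, against 4.18 and 5.66% in controls, and the pools did not overlap. The other segments that passed with the block were Igkv17-121, Igkv3-7 and Igkv1-35. Igkv17-121 had 688 and 1091 CPM in knockout pools, against 357 and 566 CPM in controls (log2 0.95, SE 0.18, edgeR adjusted p = 0.0432 with the block). Igkv3-7 had 329.6 and 788 CPM in knockout pools, against 194 and 343 CPM in controls, so that the groups overlapped and the difference showed within experiment dates (log2 0.98, SE 0.16, edgeR adjusted p = 0.0156 with the block). Without the block its log2 fold change was 1.06, and it was 0.28 without knockout pool 2, against 1.58 without knockout pool 1. Igkv1-35 had 16.7 and 22.1 CPM in knockout pools, against 31.97 and 45.3 CPM in controls (log2 -0.98, SE 0.17, edgeR adjusted p = 0.0291 with the block). Igkv13-85, chosen after its values were seen, had 17102 and 1226 CPM in knockout PB pools, against 692 and 404 CPM in controls. It had the largest estimate of the 102 and did not pass (log2 4.06, SE 0.93, edgeR adjusted p = 0.364), and its high level was that of knockout pool 1.

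After Igkv5-39, the segments with the highest mean share over the 4 Myb PB pools were Igkv1-117, Igkv1-110, Igkv2-112 and Igkv8-27, in the same order by counts per base of gene length. Igkv1-117 had 6981 and 6439 CPM in knockout pools, against 5049 and 6487 CPM in controls. Igkv1-110 had 7273 and 6180.4 CPM in knockout pools, against 3756 and 4726 CPM in controls. Igkv8-27 had 4016 and 3543 CPM in knockout pools, against 3705 and 5605 CPM in controls. None of these 3 passed in PB by edgeR (log2 0.22, 0.67 and -0.30, adjusted p = 1 for each).

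The Myb estimates of GC B cells and PB, which rest on different libraries, were set side by side. Of the 102 segments, 48 were above 0 in both cell types, 8 below 0 in both, 43 above 0 in GC B cells and below 0 in PB, and 3 the reverse. Across segments, which are not independent replicates, Pearson's r was 0.315 and Spearman's rho 0.256, and 0.254 and 0.234 without Igkv5-39. The difference of the Myb effects, PB minus GC, was called by edgeR for 0 segments, while 0% of all genes were called higher and 0.00762% lower. At an unadjusted p under 0.05, 2 segments were higher and 28 lower, against 0.952% and 2.77% of all genes, and DESeq2 called 0 higher and 5 lower, against 0.0815% and 0.377%. With the replicate block 0 segments were higher and 3 lower, against 0.0609% and 0.48% of all genes. These 3 were Igkv8-28 (log2 difference -1.97, SE 0.20, edgeR adjusted p = 0.00136), Igkv5-43 (-1.87, SE 0.25, edgeR adjusted p = 0.00805) and Igkv4-68 (-2.09, SE 0.30, edgeR adjusted p = 0.0129), and all 3 were higher with the block in knockout GC B cells. Without Myb knockout GC pool 1 and without the block the differences were log2 -1.75 (edgeR adjusted p = 0.680), log2 -1.95 (edgeR adjusted p = 0.811) and log2 -2.73 (edgeR adjusted p = 0.680) in the same order. That of Igkv4-68 was log2 -0.87 without knockout GC pool 2 and -3.23 without control GC pool 2. In PB, Igkv8-28 had 962 and 1039.5 CPM in knockout pools, against 877 and 968 CPM in controls, and Igkv4-68 had 905 and 1339 CPM in knockout pools, against 1020.4 and 856 CPM in controls. For Igkv5-39 the difference of the effects was small beside its error (log2 0.12, SE 0.69). The median difference over the 102 segments was -1.10, against -0.01 over all genes. Igkv14-111 had the third smallest p of the difference and did not pass (log2 -2.33, SE 0.58, edgeR adjusted p = 0.528).

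**Figure D4:**
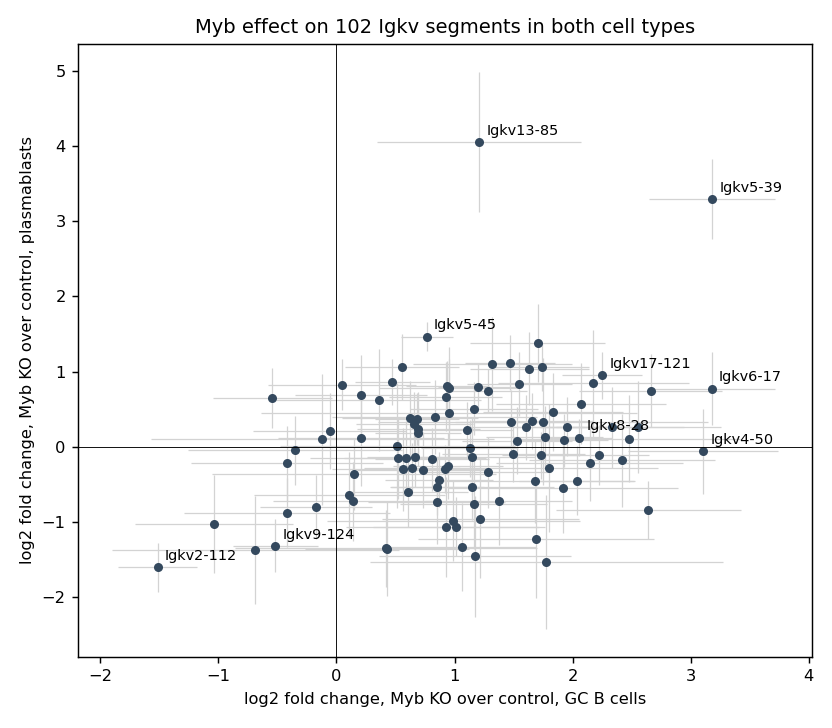
Log2 fold change of Myb knockout over control in GC B cells (horizontal axis) and in plasmablasts (vertical axis) for the 102 tested Igkv segments, with bars of 1 standard error. Igkv5-39 lies at 3.18 and 3.30, Igkv2-112 at -1.51 and -1.61, and most other segments lie right of 0 on the horizontal axis and on both sides of 0 on the vertical axis.

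Position along the locus was compared by shares, since joined segments come from the whole length of the kappa locus. The 102 V segments lie on chromosome 6 between 67555497 and 70704177 (mm10), 22.3 to 3170.2 kb from Igkc, with 38 on the plus strand and 64 on the minus strand. The 40 segments within 1000 kb of Igkc, the proximal segments, took 62.7 and 49.9% of Igkv counts in Myb knockout GC pools, against 39.3 and 42.5% in controls. In PB they took 60.1 and 56.5% in knockout pools, against 42.2 and 38.4% in controls. Igkv5-39 is 1 of these 40. Without it the proximal share was 47.5 and 40.04% in knockout and 34.8 and 38.1% in control GC pools, and 28.9 and 36.4% in knockout and 36.1 and 36.3% in control PB pools. The GC pools still did not overlap, while knockout PB pool 1 was then below both controls. The 28 segments at least 2000 kb away took 29.8 and 35.9% of the counts other than Igkv5-39 in knockout GC pools, against 42.8 and 44.8% in controls, and 40.9 and 42.4% in knockout PB pools, against 41.2 and 40.99% in controls. In the Moz experiment the proximal share was 38.8 and 40.1% in knockout and 41.8 and 39.5% in control pools. Minus-strand segments took 67.8 and 65.4% in Myb knockout GC pools, against 58.9 and 58.7% in controls, and 76.04 and 70.6% in knockout PB pools, against 62.5 and 61.5% in controls. Igkv5-39 is 1 of the minus-strand segments. It alone took 28.8 and 16.4% of Igkv counts in knockout GC pools, against 6.81 and 7.02% in controls. In PB it took 43.8 and 31.7% in knockout pools, against 9.65 and 3.33% in controls. Strand shares without Igkv5-39 were not computed, so no strand difference among the other segments is read from these values.

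**Figure D5:**
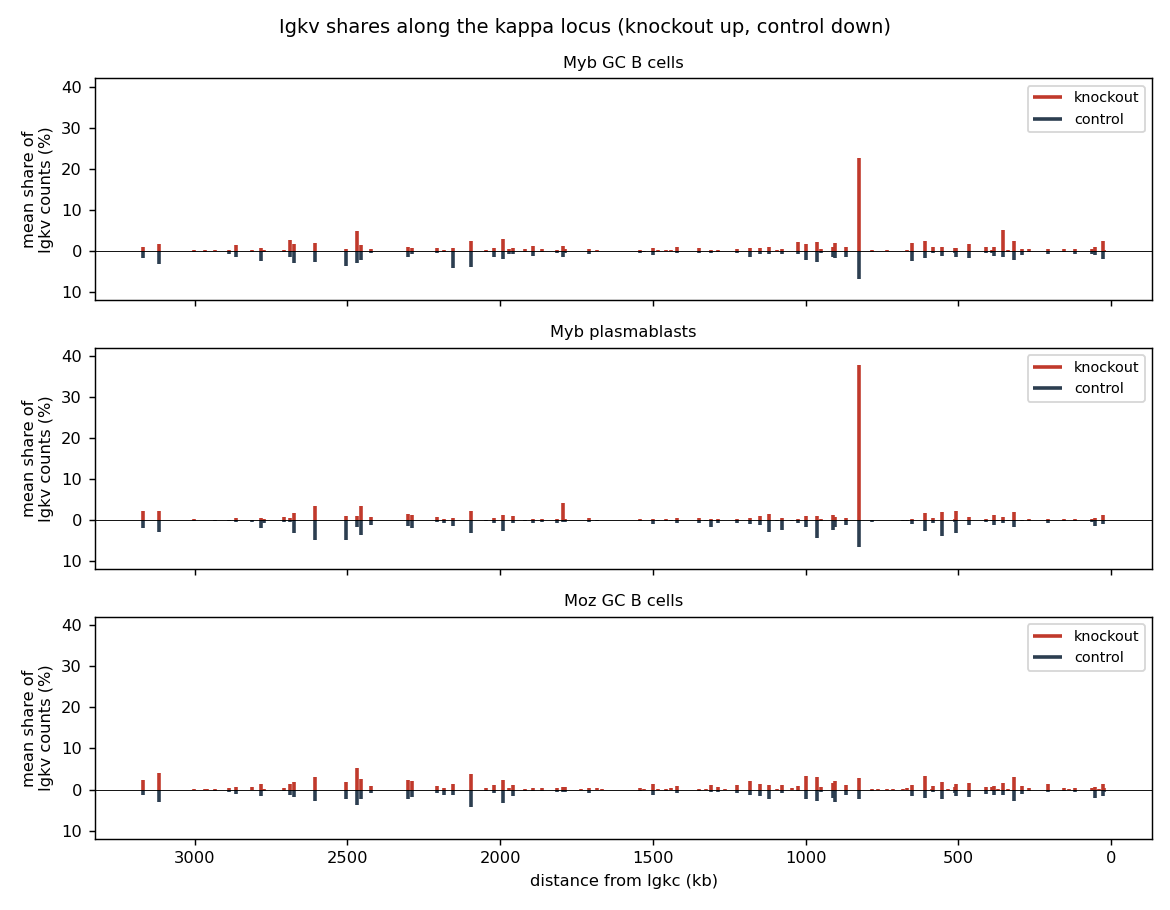
Mean share of Igkv counts (%) of each V segment at its distance from Igkc (kb), with knockout drawn upwards (red) and control downwards (dark) for Myb GC B cells, Myb plasmablasts and Moz GC B cells (means of 2 pools). The tall bar 826 kb from Igkc is Igkv5-39, with mean shares of 22.6% in Myb knockout GC B cells, 37.7% in Myb knockout PB and 2.84% in Moz knockout GC B cells.

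In Moz knockout GC B cells 0 segments passed without the block, and the summed level overlapped with the controls. The summed Igkv level was 3110.1 and 3231 CPM in Moz knockout pools, against 3323 and 1617 CPM in controls, and control pool 2 alone was low. The log2 ratio of means was 0.36 and became -0.07 without control pool 2. Of 102 segments, 70 had an estimate above 0, with a median of 0.34 against -0.01 over all genes, and relative to the Igkv total 50 were above 0 with a median of -0.02 against -0.54. The edgeR fit called 0 segments and 0% of all genes higher, and likewise 0 segments and 0% lower. At an unadjusted p under 0.05, 14 segments were higher and 1 lower, against 1.83% and 0.571% of all genes, and DESeq2 called 3 higher, against 0.504% of the 2184 genes to which it gave an adjusted p. With the replicate block 3 were higher and 0 lower, against 0.267% and 0.0305% of all genes, and 25 were higher and 2 lower at an unadjusted p under 0.05, against 5.93% and 4.26%.

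The 3 were Igkv18-36, Igkv2-137 and Igkv5-45. Igkv18-36 (ID 620088, chr6 69992465 to 69992977) had 4.74 and 2.31 CPM in Moz knockout pools, against 0.708 and 0.529 CPM in controls (log2 2.45, SE 0.30, edgeR adjusted p = 0.0106 with the block). Its log2 fold change was 1.90 without knockout pool 1 and without the block, against 2.49 with both pools. Igkv2-137 (ID 692187, chr6 67555497 to 67556216), the segment farthest from Igkc, had 77.4 and 70.1 CPM in knockout pools, against 24.9 and 34.1 CPM in controls (log2 1.34, SE 0.18, edgeR adjusted p = 0.0158 with the block). Igkv5-45 had 16.99 and 18.2 CPM in knockout pools, against 10.1 and 10.9 CPM in controls (log2 0.74, SE 0.11, edgeR adjusted p = 0.0291 with the block). In each of the 3 both knockout pools were above both controls. Igkv3-3 had the smallest p without the block and did not pass, with 2.72 and 7.22 CPM in knockout pools, against 1.18 and 0.334 CPM in controls (log2 2.76, SE 0.56, edgeR adjusted p = 1.00). By mean share the leading segments of the Moz pools were Igkv14-111, Igkv10-96, Igkv1-135, Igkv1-117 and Igkv6-15, and by counts per base of gene length Igkv6-15 stood above Igkv1-117. Igkv14-111 took 4.92 and 5.41% in knockout pools, against 4.06 and 3.50% in controls. Igkv10-96 took 4.61 and 3.14% in knockout pools, against 3.57 and 4.95% in controls. Igkv1-135 took 3.46 and 4.51% in knockout pools, against 2.82 and 3.49% in controls. Igkv1-117 took 3.70 and 2.48% in knockout pools, against 2.86 and 2.91% in controls, and Igkv6-15 2.82 and 3.51% in knockout pools, against 2.34 and 3.10% in controls. Apart from Igkv14-111, these shares overlapped between knockout and control.

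Control plasmablasts were compared with control GC B cells of the Myb experiment to show how the segments differ with cell type. Every one of the 102 tested segments was higher in PB (edgeR adjusted p at most 0.05 for each), against 25% of all genes higher and 28.1% lower. A segment could pass the low-count filter through its PB libraries alone. In the control GC libraries 85 and 83 segments had at least 10 counts, and 17 and 19 had 1 to 9. The folds of those with few counts there are of low precision. Log2 fold changes ran from 3.16 to 9.07 with a median of 7.04, against -0.17 over all genes. Relative to the Igkv total 45 were above 0 and 57 below, with a median of -0.13, a scaling that moved the median of all genes to -7.35. The summed level was 117781 and 123513 CPM in control PB, against 733 and 937 CPM in control GC B cells (log2 ratio 7.17), and the log2 ratio of CPM without TMM scaling was 5.30. Igkv counts were 5.29 and 4.89% of all counts in control PB, against 0.119 and 0.140% in control GC B cells. No experiment date in the labels holds both PB and GC B cells, and date and cell type cannot be told apart.

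The largest folds were those of Igkv4-55, Igkv4-53, Igkv4-61, Igkv8-27 and Igkv2-109. Igkv4-55 had 4191 and 2912 CPM in control PB, against 7.75 and 5.40 CPM in control GC B cells (log2 9.07, SE 1.22, edgeR adjusted p = 7.12e-05). Igkv4-53 had 997 and 4585 CPM in control PB, against 6.98 and 3.87 CPM in control GC B cells (log2 9.00, SE 0.82, edgeR adjusted p = 3.42e-06). Its log2 fold change was 7.49 without control PB pool 2. Igkv4-61, Igkv8-27, Igkv2-109, Igkv1-122, Igkv15-103 (sole member of its family), Igkv9-123, Igkv8-24 and Igkv11-125 (sole member of its family) followed, with log2 fold changes of 8.30 to 8.74. That of Igkv11-125 was 6.88 without control PB pool 1. The smallest fold was that of Igkv4-92, chosen after its values were seen, with 92.1 and 39.03 CPM in control PB, against 2.17 and 12.7 CPM in control GC B cells (log2 3.16, SE 0.72, edgeR adjusted p = 0.00299). Scaled to the Igkv total its direction turned (log2 -3.91, edgeR adjusted p = 6.71e-13). Igkv5-39 was the segment with the highest mean level in both, with 11371 and 4118 CPM in control PB, against 49.9 and 65.8 CPM in control GC B cells, and its share overlapped between the cell types. In control PB pool 2 Igkv12-46 had the highest share, 7.27%, while Igkv5-39 had 3.33%.

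The partners of the V segments were followed alongside. Igkc, the kappa constant region, had 3515 and 3947 CPM in Myb knockout GC pools, against 1481 and 1923 CPM in controls (log2 1.14, SE 0.21, edgeR adjusted p = 0.0159 with the block). In PB it had 317019 and 376228 CPM in knockout pools, against 175969 and 249495 CPM in controls (log2 0.72, SE 0.21, edgeR adjusted p = 0.212 with the block). Of the 15 tested light chain partners (Igkc, the Igkj and the Iglv, Iglj and Iglc genes; Iglc4 had no row in the table), 0 were called by edgeR in either Myb comparison without the block. At an unadjusted p under 0.05, 5 were higher in knockout GC B cells, and 1 was higher and 3 lower in knockout PB, and DESeq2 called 4 higher in GC B cells and 1 higher and 3 lower in PB. With the block 5 rose in knockout GC B cells, namely Igkc, Igkj1, Igkj2, Igkj4 and Igkj5, against 2.03% of all genes. In knockout PB 1 rose, Igkj5, against 0.213%, and 3 fell, Iglv1, Iglj1 and Iglc1, against 0.366%. Without knockout GC pool 1 Igkc had log2 1.22 (edgeR adjusted p = 0.898) in GC B cells. Igkj5 had 20759 and 14035 CPM in knockout PB pools, against 6702 and 8553 CPM in controls (log2 1.17, SE 0.22, edgeR adjusted p = 0.0427 with the block). The Igkj5 share of Igkj counts was 54.5 and 41.1% in knockout PB pools, against 33.1 and 36.4% in controls. In GC B cells it was 35.8 and 34.0% in knockout pools, against 33.8 and 28.4% in controls. Whether Igkj5 was joined to Igkv5-39 was not tested, since gene counts do not link the 2.

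In knockout PB lambda genes fell beside the higher kappa level. Iglv1, a lambda V segment, had 26842 and 30682 CPM in knockout PB pools, against 71788 and 75778 CPM in controls (log2 -1.36, SE 0.17, edgeR adjusted p = 0.00376 with the block). Its constant region Iglc1 had 31762 and 48296 CPM in knockout PB pools, against 92399 and 131483 CPM in controls (log2 -1.49, SE 0.20, edgeR adjusted p = 0.00463 with the block). In GC B cells Iglv1 had 249 and 407 CPM in knockout pools, against 397 and 663 CPM in controls (log2 -0.69, SE 0.35, edgeR adjusted p = 1.00), and the pools overlapped. The Igkv share of all light chain V counts was 85.9 and 79.2% in knockout GC pools, against 57.1 and 50.4% in controls, and 85.2 and 78.6% in knockout PB pools, against 55.7 and 56.4% in controls. Both knockout pools were above both controls in each cell type. In the Moz experiment the share was 40.3 and 35.1% in knockout pools, against 52.8 and 28.1% in controls, with the knockout pools between the controls. Igkv counts per Igkc count were 0.637 and 0.623 in Myb knockout GC pools, against 0.495 and 0.487 in controls, and 0.704 and 0.459 in knockout PB pools, against 0.669 and 0.495 in controls, where the groups overlapped.

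Some plasma cell genes were higher in Myb knockout GC B cells. Of the 8 plasmablast markers, 1 rose without the block in knockout GC B cells, against 0.236% of all genes. This was Prdm1, which encodes the plasma cell factor Blimp-1, with 21.8 and 14.9 CPM in knockout pools, against 3.21 and 4.03 CPM in controls (log2 2.34, SE 0.35, edgeR adjusted p = 0.0248). Without knockout pool 1 it had log2 2.04 (edgeR adjusted p = 0.130). With the block 4 of the 8 rose, against 2.03% of all genes, Prdm1, Sdc1, Ly6c2 and Irf4, of which Sdc1 encodes the surface marker CD138. The median of the 8 was 0.60, against 0.00 over all genes. The summed level of the list was 1647 and 2409 CPM in knockout GC pools, against 1236 and 2015 CPM in controls, so that the groups overlapped, and none of the 8 was at 0. Their part in the higher Igkv level was not tested. Of 15 secretory plasma cell genes, 1 rose without the block (Prdm1) and 6 with it (Prdm1, Irf4, Sdc1, Hsp90b1, Fkbp11 and Creb3l2), with a median of 0.38. Prdm1, Xbp1, Irf4, Sdc1, Jchain, Mzb1 and Tnfrsf17 are on both this list and the plasmablast marker list, so these lists are not independent. In PB 0 of the 8 markers and 0 of the 15 secretory genes were called by edgeR with or without the block or by DESeq2, with 0 of either list at an unadjusted p under 0.05 without the block, and the medians were 0.00 and -0.10. In Moz GC B cells 0 of 15 secretory genes passed by edgeR in either fit or by DESeq2 (1 higher at an unadjusted p under 0.05 without the block). With the block 1 of the 8 plasmablast markers rose, against 0.267% of all genes. This was Ly6c2, with 56.9 and 78.97 CPM in knockout pools, against 17.8 and 26.4 CPM in controls (log2 1.63, SE 0.13, edgeR adjusted p = 0.000537). In Moz GC B cells all 15 secretory genes and all 8 markers had estimates above 0 without the block. Their medians were 0.42 and 0.52, against -0.01 over all genes. The marker list summed to 6768 and 8292 CPM in Moz knockout pools, against 5240 and 5890 CPM in controls, so that these groups did not overlap. In the difference of Myb effects, PB minus GC, 3 secretory genes (Hsp90b1, Fkbp11 and Creb3l2) were lower with the block, against 0.48% of all genes.

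Among regulators of the kappa locus 1 passed in a Myb comparison. Of 20 such factors, which include the kappa enhancer factors Irf4, Spib and Pax5, 0 were called by edgeR in GC B cells or PB without the block, nor by DESeq2, and 1 in each was higher at an unadjusted p under 0.05. With the block 1 rose in GC B cells, against 2.03% of all genes. This was Irf4, which is also on the plasmablast and secretory lists. It had 62.6 and 51.7 CPM in knockout pools, against 37.4 and 34.4 CPM in controls (log2 0.67, SE 0.15, edgeR adjusted p = 0.0371 with the block). Its log2 fold change was 0.53 without knockout pool 1 and without the block. In PB 0 regulators were called with the block. Their medians were -0.07 in GC B cells and 0.02 in PB. Of 11 somatic hypermutation genes 0 were called in the 3 knockout comparisons by edgeR with or without the block or by DESeq2, with 0 at an unadjusted p under 0.05 without the block and medians of -0.01 in Myb GC B cells and -0.18 in Moz GC B cells. Of 9 genes of receptor editing and the surrogate light chain 4 were tested. With the block 1 fell in Myb knockout GC B cells, against 0.396% of all genes, and in PB, against 0.366%. This was Vpreb3, in GC B cells (log2 -0.68, SE 0.15, edgeR adjusted p = 0.0425) and in PB (log2 -1.03, SE 0.18, edgeR adjusted p = 0.0338). Without knockout GC pool 1 it had log2 -0.29 (edgeR adjusted p = 0.972) in GC B cells. Without the block its PB value was log2 -0.99, and it was -1.67 without knockout PB pool 2. Vpreb3 encodes a protein related to the surrogate light chain. In Moz GC B cells 0 of the regulators, 0 of the light chain partners and 0 of the editing genes passed by edgeR in either fit or by DESeq2, with 1, 1 and 0 higher at an unadjusted p under 0.05 without the block. Between control PB and control GC B cells, where 25% of all genes rose and 28.1% fell, 3 of the 20 regulators rose (Irf4, Tcf4 and Tcf12) and 12 fell, among them Pax5 (log2 -7.24, SE 0.39, edgeR adjusted p = 1.17e-07), and all 11 hypermutation genes fell.

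Markers of other cells were measured in the same libraries. The 8 T-cell markers summed to 4.22 to 10.3 CPM and the 8 myeloid markers to 7.74 to 89.7 CPM over the 12 libraries. Cd3e, Cd8a, Trbc1, Bcl11b, Cd14, S100a8 and S100a9 had 0 counts in at least 1 library. Of 7 tested in each list, 0 T-cell markers passed in the 3 knockout comparisons by edgeR in either fit or by DESeq2 (1 higher at an unadjusted p under 0.05 without the block in Myb GC B cells and 1 in PB). With the block 1 myeloid marker rose in Myb GC B cells, against 2.03% of all genes, and in Myb PB, against 0.213%. This was Fcer1g, in GC B cells (log2 1.50, SE 0.30, edgeR adjusted p = 0.0231) and in PB (log2 1.29, SE 0.21, edgeR adjusted p = 0.0163). Without knockout GC pool 1 Fcer1g had log2 0.89 (edgeR adjusted p = 0.972) and Fcer2a, named next, log2 -1.12 (edgeR adjusted p = 0.450). Of 8 naive follicular markers 1 fell with the block in Myb knockout GC B cells, against 0.396% of all genes. This was Fcer2a, which encodes CD23 (log2 -0.83, SE 0.16, edgeR adjusted p = 0.0251). The naive markers summed to 452 and 227 CPM in knockout GC pools, against 469 and 399.8 CPM in controls. Of 9 GC markers 0 were called in the 3 knockout comparisons by edgeR in either fit or by DESeq2, with 0, 3 and 2 at an unadjusted p under 0.05 without the block for the Myb GC, Myb PB and Moz comparisons. The part of these cells in the Igkv results was not tested.

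The levels of the 102 tested segments spanned a wide range within each group. Mean levels ran from 0.126 to 525 CPM in Myb knockout GC B cells, 0.0752 to 57.8 in Myb control GC B cells, 4.60 to 76232 in Myb knockout PB, 8.32 to 7745 in Myb control PB, 0.148 to 164 in Moz knockout and 0.208 to 99.3 in Moz control GC B cells. By these means Igkv5-39 was the highest in the 4 Myb groups, Igkv14-111 in Moz knockout and Igkv10-96 in Moz control pools. Single pools differed. Igkv12-46 was the highest in Myb control PB pool 2, Igkv5-48 in Moz knockout pool 1 and Igkv14-111 in Moz control pool 1. Igkv6-29 and Igkv20-101-2 were among the lowest. Of the families with 1 segment, Igkv19 (Igkv19-93) had the highest mean share in Myb knockout GC B cells, 2.79% ± 0.404, against 1.99% ± 0.861 in controls. Igkv16 (Igkv16-104) had 0.951% ± 0.284 in Myb knockout GC B cells, against 1.41% ± 0.0132 in controls. Igkv15 (Igkv15-103) had 1.20% ± 0.0951 in Myb knockout PB, against 1.99% ± 0.00642 in controls. Igkv7 (Igkv7-33), Igkv11, Igkv18 and Igkv20 were each below 1% of Igkv counts in every library. The pseudogene Igkv13-71-1 had 0 counts in all 12 libraries, which allows up to 0.121 to 0.362 unscaled CPM (3 counts per library, counting error only).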

How the data were processed

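Counts per Entrez gene were made by the authors with featureCounts (build mm10), which the submitters' processing notes name, and were deposited as whole-number counts with gene lengths, 1 column per pool of mice. Reads of segments that resemble each other, or of mutated V regions, may be lost or placed on a relative by such counting. Segments were placed on mm10 with the GENCODE M21 annotation. A motif search in promoters was not analysed here.

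Genes were filtered (minimum count 10, minimum total 15), TMM-normalised and tested with edgeR 4.0.16 in R 4.3.3 in 1 quasi-likelihood model of 6 group means over 12 libraries (6 residual degrees of freedom), with Benjamini-Hochberg adjustment over 13131 genes. Since PB libraries hold far more immunoglobulin RNA, the TMM factors of PB libraries were 0.392 to 0.45 and those of GC libraries 1.45 to 1.73. The fit with the replicate block has 3 residual degrees of freedom. The replicate numbers pair the samples because the labels give knockout and control pools of 1 number the same dates; deviations of paired pools from their group means correlated at 0.749 (Myb GC), 0.658 (Myb PB) and 0.306 (Moz GC) over all genes, and at 0.101, 0.024 and 0.037 over the 102 Igkv segments alone. Alternatives were DESeq2 1.42.0, its size factors, no low-count filter, scaling without immunoglobulin genes, scaling to the Igkv total and leaving out each pool. Shares used raw counts, with Wilson intervals at 95%. The edgeR fit without the block was tested on 1 set of simulated counts, for the Myb PB comparison only. The outcome of that run is not given here, and nothing is concluded from it. The fit with the block, DESeq2 and the other comparisons were not tested in this way.

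Named were the 5 segments with the highest mean share in each experiment, the segments called (at most 10 a direction, or the 3 with the smallest p where under 3 were called), up to 6 a direction called with the block, and the members of families with 1 segment. The members and lists were chosen with earlier results of these data known.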

Additional observations from a re-analysis of the deposited data

Results flagged for a closer look

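For 3 segments the difference between Myb knockout and control differed between PB and GC B cells in the test of that difference, in the fit with the replicate block. The log2 difference, PB minus GC, was -1.97 for Igkv8-28 (edgeR adjusted p = 0.00136), -1.87 for Igkv5-43 (edgeR adjusted p = 0.00805) and -2.09 for Igkv4-68 (edgeR adjusted p = 0.0129). Without the block 0 segments passed in this test by edgeR, with 2 higher and 28 lower at an unadjusted p under 0.05, and DESeq2 called 5 lower. Leaving out 1 pool, without the block, gave a log2 difference of -2.40 to -1.58 for Igkv8-28, -2.23 to -1.53 for Igkv5-43 and -3.23 to -0.87 for Igkv4-68, whose lowest value was without Myb control GC pool 2 and whose value nearest to 0 was without Myb knockout GC pool 2.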

How the results depend on the processing

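The numbers of segments called, in the order Myb GC, Myb PB, Moz GC, PB against GC in controls and the difference of the Myb effects, were 4, 1, 0, 102 and 0. DESeq2's size factors and scaling without immunoglobulin genes gave the same numbers. With the replicate block they were 21, 6, 3, 102 and 3. In PB against GC that fit called 4108 of 13131 genes higher and 4793 lower, and its shares for the other comparisons stand above. Without the low-count filter they were 50, 19, 15, 102 and 33, with 18652 genes tested. No share over all genes is given for that fit, so its counts are not read as results about the segments. DESeq2 gave 23, 5, 3, 102 and 5. Scaling to the Igkv total gave 20, 9, 0, 32 and 1, with 5 higher and 15 lower in Myb GC, 2 higher and 7 lower in Myb PB, 10 higher and 22 lower in PB against GC, and 1 higher, Igkv13-85, for the difference, so that in Myb GC, Myb PB and PB against GC most of these calls were lower. Scaling to that total without Igkv5-39, an alternative chosen after seeing the data, gave 16, 2, 0, 33 and 1, of which 9, 0, 0, 23 and 0 were lower. Over all 13131 genes, scaling to the Igkv total called 50 higher and 12611 lower in PB against GC. For the difference it called 9 higher and 2 lower. No share over all genes is given for the fits without Igkv5-39 in the total or without 1 pool. The causes of the changes in these numbers were not tested. Leaving out 1 pool gave 0 to 4 calls in Myb GC, 0 to 1 in Myb PB, 0 to 1 in Moz GC, 102 to 102 in PB against GC and 0 to 0 for the difference. The count was 0 without Myb knockout GC pool 1 or either control GC pool, and without Myb knockout PB pool 1 or either control PB pool. Without Myb knockout PB pool 2 the 1 call was Igkv13-85, not Igkv5-45. The 1 Moz call, Igkv7-33, arose without Moz knockout pool 1. The lone pool that then stood for a group was assumed to vary like the other groups.

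The log2 ratio of the summed Igkv level without 1 pool was 1.33 to 1.68 in Myb GC, 0.52 to 0.89 in Myb PB, -0.07 to 0.97 in Moz GC and 7.01 to 7.36 in PB against GC. It turned to -0.068 without Moz control pool 2, and PB against GC was 5.30 without TMM scaling. Without the most abundant segment of each library the family share was 5.31% for Igkv5 in Myb knockout GC, 3.21% for Igkv5 in Myb knockout PB and 17.8% for Igkv4 in Moz knockout GC. Over the segments whose tests the text prints and all alternatives, 488 values kept their direction and side of the limit, 59 newly passed it, 22 no longer passed it and 23 changed sign. Scaled to the Igkv total, log2 values turned to -0.78 for Igkv10-96, -0.34 for Igkv12-46 and -0.73 for Igkv5-45 in Myb GC, to -0.037 for Igkv1-110, -0.48 for Igkv1-117, -0.40 for Igkv4-68 and -0.56 for Igkv8-28 in Myb PB, to -0.14 for Igkv10-96 in Moz GC, and to -3.91 for Igkv4-92 and -0.090 for Igkv5-39 in PB against GC. Scaled to that total without Igkv5-39 they turned to -0.50 for Igkv10-96, -0.11 for Igkv12-46 and -0.47 for Igkv5-45 in Myb GC, -0.13 for Igkv10-96 in Moz GC, and -3.89 for Igkv4-92 and -0.071 for Igkv5-39 in PB against GC. Both are changes of scale from level to share. Without 1 pool, values not past the limit ran from -0.063 to 0.54 for Igkv4-68, -0.28 to 0.087 for Igkv5-43 and -0.57 to 0.044 for Igkv8-27 in Myb PB, and from -0.42 to 1.04 for the difference of Igkv5-39. Among pools of 2 per group, differences below the spread between pools cannot be seen. Segments with few counts in GC libraries have folds of low precision.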
